A study of Lathyrus oleraceus with 6 samples.

Results

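Psat5g033760, Psat4g196680 and Psat6g038840 are 3 pea loci described as kinases whose transcripts were lower in every root library treated with CO8-DA than in any control library. They are named loci, 3 of 44756 in the count table, and were chosen by their description and by the absence of overlap between the groups. Both criteria were also met by 5 other loci among the 68 described as kinases in the study's list of changed genes, and those are set beside them below. The levels in these same 6 libraries chose the 3 kinases, so their decrease is given as a description without a test, and they are left out of the counts of called loci in each list. The 3 descriptions are a histidine kinase cytokinin receptor (Psat5g033760), an LRR (leucine-rich repeat) receptor-like kinase plant-like protein (Psat4g196680) and a receptor-like kinase with a galacturonan-binding domain (Psat6g038840). These are best database matches and were not checked against sequence.

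The libraries came from roots of wild-type Pisum sativum L. cultivar Frisson, from seedlings 4 to 5 days old when the treatment began. The control group (3 libraries) was kept in diluted Jensen's medium without elicitor, and the CO8-DA group (3 libraries) received the deacetylated chitooligosaccharide CO8-DA at 1e-05 M in the same medium. Roots were taken after 24 h, so each comparison is of a single dose and a single time point. Each library was made from several pooled plants, and the p-values given for other loci measure the spread between these libraries.

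Plant receptor-like kinases carry an extracellular part, a membrane-spanning segment and a cytoplasmic kinase that phosphorylates serine or threonine. Those with leucine-rich repeats commonly recognise peptides or microbial molecules, and wall-associated kinases bind pectin, the galacturonan-rich component of the cell wall. Cytokinin receptors work differently: they are hybrid histidine kinases that pass a phosphate through carrier proteins to response regulators in the nucleus, and in the legumes Medicago truncatula and Lotus japonicus receptors of this family are needed for nodule formation on roots.

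The libraries held 12315774 to 19534336 estimated counts. Of the 28549 loci with any count, 21293 passed the filter on low counts and were tested, and the 3 kinases also passed that filter. A locus was called when the Benjamini-Hochberg adjusted p of edgeR's quasi-likelihood test was under 0.05 and the log2 fold change of CO8-DA over control was at least 1 in size. By that rule 666 loci (3.13% of those tested) were called, 105 of them lower and 561 higher. At an unadjusted p under 0.05, 1885 of the 21293 tested loci were lower, to be set beside each such count below. The log2 fold changes of all tested loci had a median of -0.01. Levels are given as CPM, the counts of a locus relative to the TMM-scaled total of its library, which are not corrected for transcript length, so they are compared between libraries and not between loci. Seed storage and photosynthesis transcripts, taken as possible markers of other tissues, were present at low level in both groups. The summed CPM of 5 seed storage loci was 9.22 to 46.1 in controls and 37.5 to 60.0 after CO8-DA. That of 3 photosynthesis loci was 1.83 to 4.79 and 4.66 to 17.2. Of these 8 loci, 2 seed storage loci were at 0 in all controls, and the part of these tissues in the values below was not tested. The 8 loci came from annotation of the study that leans to higher loci, so their direction is not independent evidence. All 3 photosynthesis loci are photosystem II protein D1 loci with divided reads, matched to chloroplast or plastid entries. Whether they mark tissue other than root was not tested. Psat0s6638g0040 and Psat4g065320 had the same estimate in every library, so they are not separate measurements. Most of the seed storage sum was 1 locus, Psat1g110680, with 43.1 of 46.1 CPM in control replicate 1. In whole roots, fewer cells that express a gene and less transcript per cell cannot be told apart.

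The cytokinin receptor locus Psat5g033760 (chromosome 5) had 30, 24 and 29 counts in control replicates 1 to 3 and 10, 14 and 9 counts in CO8-DA replicates 1 to 3. Its CPM was 2.03, 1.96 and 2.07 in the controls and 0.780, 0.880 and 0.461 after CO8-DA. The controls lay close together, the treated libraries were all lower, and the lowest control stood 2.23 times above the highest treated library. The mean CPM was 2.02 ± 0.0579 in controls and 0.707 ± 0.219 after CO8-DA (SD, n = 3 each). The log2 fold change was -1.53 (SE 0.33), a level 2.88-fold lower. Summed over the group and scaled for depth, the 33 counts after CO8-DA were 33.8% of the control value of 83 counts, with an exact 95% interval of 21.9 to 51.1% that covers counting error only.

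The close agreement of the 3 controls at this locus was tighter than counting alone gives on average. Their coefficient of variation was 2.87%, whereas the counting error of such counts is 19.0%. After CO8-DA the coefficient of variation of Psat5g033760 was 31.0%, near its counting error of 30.2%. All 6 estimates of this locus were whole numbers within 0.005, so they show no read divided with another locus. Its Gene Ontology terms include root development, negative regulation of abscisic acid signalling and responses to hydrogen peroxide and nitric oxide.

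**Figure D1:**
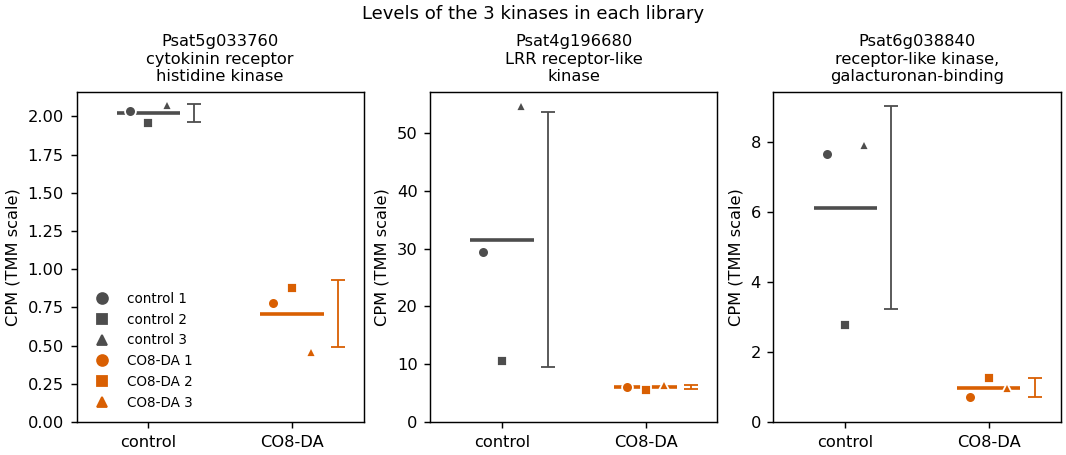
Level of each of the 3 kinases in CPM (linear axis from 0, TMM scale) in the 3 control and 3 CO8-DA libraries. Each point is a library, its shape gives the replicate number, the horizontal line is the group mean, and the bar beside it spans the mean ± SD (n = 3). The treated libraries lie below every control at each locus, and control replicate 2 is the lowest control at Psat4g196680 (10.6 CPM) and at Psat6g038840 (2.77 CPM).

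The LRR receptor-like kinase locus Psat4g196680 (chromosome 4) is annotated with the respiratory burst of the defense response, response to chitin and defense response to fungus. Its estimated counts were 434.4, 130.1 and 764.9 in control replicates 1 to 3 and 77.8, 88.6 and 125.2 in CO8-DA replicates 1 to 3. The CPM was 29.4, 10.6 and 54.7 in the controls against 6.09, 5.59 and 6.40 after CO8-DA. The controls thus differed widely among themselves, the treated libraries were nearly level, and the lowest control (replicate 2) was 1.66 times the highest treated library. The mean CPM was 31.6 ± 22.1 in controls and 6.03 ± 0.405 after CO8-DA (SD, n = 3 each). The log2 fold change was -2.39 (SE 0.51), or 5.24-fold lower. It was -1.74 without control replicate 3, the highest control, and -2.80 without control replicate 2.

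The spread of Psat4g196680 among controls was a coefficient of variation of 70.0%, against a counting error of 4.75%. After CO8-DA it was 6.73%, against a counting error of 10.1%. None of its 6 estimates was a whole number, which shows that reads at this locus were divided with at least 1 other locus when the counts were estimated.

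Its estimates added up with those of Psat4g196520, also described as an LRR receptor-like kinase plant-like protein, to whole numbers within 0.02 in 5 of the 6 libraries. Among 5196 loci with divided reads in at least 5 libraries, no other partner gave whole sums in more than 3. In CO8-DA replicate 3 the sum of the pair missed a whole number by 0.18. With Psat4g196600, a locus without description numbered between them, the sum was whole within 0.01 in all 6 libraries. The estimate of Psat4g196600 itself was whole in every library except CO8-DA replicate 3 (340.8 counts), so a division of its reads shows only there.

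The loci that shared these reads did not move together. The CPM of Psat4g196520 was 4.14, 1.31 and 8.07 in the controls and 9.68, 10.2 and 14.4 after CO8-DA, so each treated library lay above every control. Its log2 fold change was 1.33 (SE 0.50), which missed the call (edgeR adjusted p = 0.203, DESeq2 adjusted p = 0.0712). At Psat4g196600 the groups overlapped, with a CPM of 33.5, 12.7 and 57.4 in controls and 20.5, 15.1 and 17.5 after CO8-DA. Its log2 fold change was -0.97 (SE 0.45, edgeR adjusted p = 0.292), and it was called only without control replicate 2 (adjusted p = 0.0290).

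Of the reads of the 3 loci together, Psat4g196680 received 43.9%, 43.1% and 45.5% in controls and 16.8%, 18.0% and 16.8% after CO8-DA. Its share was thus nearly the same in all controls, although their total differed widely. The share of Psat4g196520 was 6.12%, 5.27% and 6.73% in controls and 26.8%, 33.2% and 37.6% after CO8-DA. Psat4g196600 took 47.8 to 51.7% in controls and 45.6 to 56.5% after CO8-DA, ranges that overlap. The shares of Psat4g196680 and Psat4g196520 depend on how divided reads were assigned, and the error of that assignment was not tested. The reads of Psat4g196600 showed a division only in CO8-DA replicate 3, so most of the reads it adds were not visibly divided.

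Counted as 1 locus, the 3 loci had 989, 302 and 1681 counts in controls and 464, 493 and 747 counts after CO8-DA. The CPM of the sum was 67.1, 24.6 and 120.1 in controls and 36.2, 31.0 and 38.2 after CO8-DA. Control replicate 2 lay below all treated libraries, so the sum does not show the absence of overlap by which Psat4g196680 was chosen. The log2 fold change of the sum was -1.01 (SE 0.46). For Psat4g196680 and Psat4g196520 alone it was -1.05 (SE 0.49), with a CPM of 33.6, 11.9 and 62.7 in controls and 15.8, 15.8 and 20.8 after CO8-DA.

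**Figure D2:**
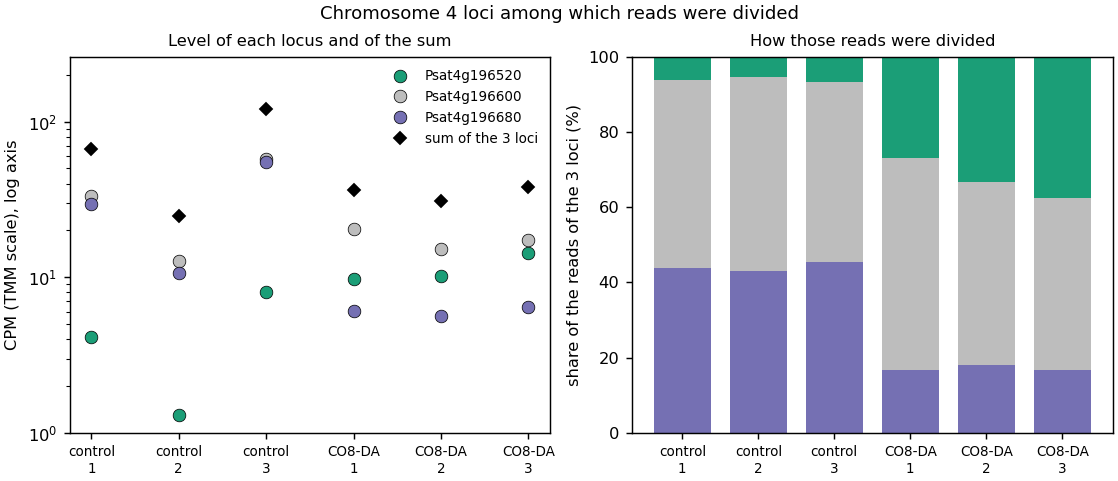
Left, CPM (log axis) of Psat4g196680, Psat4g196520, Psat4g196600 and their sum in each of the 6 libraries. Right, the percent of the reads of these 3 loci assigned to each. The share of Psat4g196680 is 43.1 to 45.5% in controls and 16.8 to 18.0% after CO8-DA, while the sum overlaps between the groups.

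Psat6g038840 (chromosome 6), the receptor-like kinase with a galacturonan-binding domain of the wall-associated kinase type, had 113, 34 and 111 counts in control replicates 1 to 3 and 9, 20 and 19 counts in CO8-DA replicates 1 to 3. Its CPM was 7.66, 2.77 and 7.93 in the controls and 0.702, 1.26 and 0.972 after CO8-DA. Control replicate 2 was well below the other controls, yet 2.21 times above the highest treated library. The mean CPM was 6.12 ± 2.90 in controls and 0.977 ± 0.277 after CO8-DA (SD, n = 3 each). The log2 fold change was -2.63 (SE 0.45), a level 6.19-fold lower. The 48 counts after CO8-DA were 15.8% of the depth-scaled control value of 258 counts (exact 95% interval 11.4 to 21.6%, counting error only).

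The estimates of Psat6g038840 were whole numbers in all 6 libraries. Its coefficient of variation was 47.4% in controls against a counting error of 10.8%, and 28.4% after CO8-DA against 25.0%. Without control replicate 2 the log2 fold change was -2.97. That library was the lowest control at all 3 kinases, at 64.2% of tested loci described as kinases and at 35.4% of all tested loci.

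The galacturonan-binding domain was annotated at 8 loci, all taken from genes that the study called changed in these samples. Their counts are therefore not independent evidence of a direction. The study made those calls with DESeq2 at the same thresholds, so a DESeq2 call of any listed locus was set by that choice. Of the 7 besides Psat6g038840, edgeR called 5 higher and 0 lower, with 1 lower at an unadjusted p under 0.05, and DESeq2 called 6 higher and 1 lower. Of all tested loci, edgeR called 2.63% higher and 0.493% lower. The log2 fold changes of these 7 had a median of 1.84, against -2.63 at Psat6g038840. Left out in turn, control replicate 3 and each CO8-DA library brought the 7 loci to 1 edgeR call, and control replicate 2 brought them to 3.

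The wall-associated receptor kinase-like locus Psat6g037320 had a CPM of 2.10, 1.71 and 1.07 in controls and 8.35, 6.91 and 6.34 after CO8-DA. It rose, with a log2 fold change of 2.13 (SE 0.28, edgeR adjusted p = 0.00548), and it kept its call without any single library. The receptor-like kinase Psat6g038440, 1 of the 10 loci before Psat6g038840, had a CPM of 0.543, 0.245 and 0.357 in controls and 1.56, 1.89 and 1.94 after CO8-DA. Its log2 fold change was 2.20 (SE 0.37, edgeR adjusted p = 0.0164), and the call was kept only without control replicate 1, with an adjusted p of up to 0.0793 otherwise. The other called loci were Psat1g035960, Psat6g037240 and Psat0s3198g0080, with log2 fold changes of 1.01 to 1.87, and each lost its call without control replicate 3 or any CO8-DA library.

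Psat6g038800, a stress-induced receptor-like kinase and the locus just before Psat6g038840 in number, lay on the same side as its neighbour. Its counts were 54, 20 and 51 in controls and 19, 10 and 14 after CO8-DA, a CPM of 3.66, 1.63 and 3.64 against 1.48, 0.628 and 0.716. No treated library reached the lowest control, but the gap was only 1.10 times. The log2 fold change was -1.70 (SE 0.45) with an edgeR adjusted p of 0.0855, which is no call. With DESeq2, by which the study chose the list, it passed (adjusted p = 0.0239). It was also called without control replicate 2 (edgeR adjusted p = 0.0470). The remaining locus without an edgeR call was Psat7g024600, a RING-H2 finger ATL21A-like protein, with a log2 fold change of 1.52 (SE 0.37, adjusted p = 0.0623). DESeq2 called Psat7g024600 (adjusted p = 0.00734), as did edgeR without control replicate 1 (adjusted p = 0.0145), and its adjusted p was up to 0.205 without another library.

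**Figure D3:**
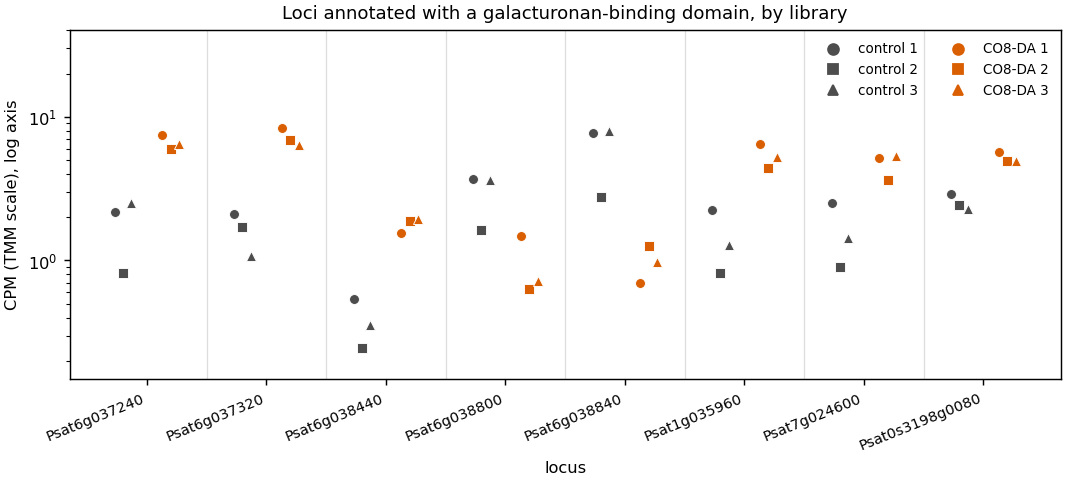
CPM (log axis) of the 8 loci annotated with a galacturonan-binding domain in the 3 control and 3 CO8-DA libraries, each point a library. Psat6g038840 and Psat6g038800 lie lower after CO8-DA, and the other 6 loci lie higher.

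Of the 65 other loci described as kinases, 64 were tested. Beside 2.63% higher and 0.493% lower over all tested loci, edgeR called 55 of these kinases higher, 1 lower (Psat2g024280) and 8 neither. Their median log2 fold change was 1.75. This list too was chosen by the study on these samples with DESeq2. A DESeq2 call of each locus was thus set by that choice, with 60 higher and 5 lower. Over all loci it tested, DESeq2 called 2.94% higher and 0.829% lower. At these 5 lower loci every treated library lay below every control, which their choice as lower on the same libraries favours. Of the 67 tested loci described as kinases, the 3 kinases included, 8 had every CO8-DA library below every control and 59 had every one above. Over all tested loci these shares were 11.7% and 13.7%. The list was chosen as changed on these libraries, so its counts without overlap are a description. The 55 higher edgeR calls were 55 without control replicate 1, 35 without control replicate 2, 28 without control replicate 3 and 25 or 26 without any one CO8-DA library. Over all tested loci the 561 higher calls became 778, 450, 409 and 338 to 349 in the same order. Without a CO8-DA library none of the other kinases was called lower by edgeR, with 5 lower at an unadjusted p under 0.05. Without control replicate 2 the lower call was Psat6g038800 in place of Psat2g024280.

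Psat2g024280, described as the LysM receptor kinase K1B, belongs to the family of receptors that bind chitin-related oligosaccharides and nodulation factors through LysM domains. Its CPM was 2.51, 2.61 and 1.57 in controls and 0.780, 0.440 and 0.563 after CO8-DA. It fell, with a log2 fold change of -1.91 (SE 0.36, edgeR adjusted p = 0.0254), and the lowest control was 2.01 times the highest treated library. The call was lost without control replicate 2 or any CO8-DA library, with an adjusted p of up to 0.118.

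The gap between the groups, the lowest control over the highest treated library, was larger at the 3 kinases and Psat2g024280 than at the other lower loci. The 3 kinases were chosen for showing such a gap, so its size at them is a description. It was 2.23 times at Psat5g033760, 2.21 times at Psat6g038840 and 1.66 times at Psat4g196680. The value at Psat4g196680 is for its divided estimates, and its sum with Psat4g196520 overlapped between the groups. Next came Psat5g112560, a myosin heavy chain kinase B-like protein with a gap of 1.37 times, Psat2g153400, an osmosensor histidine kinase, with 1.13 times, and Psat2g020680, a calmodulin-domain kinase of the calcium-dependent CDPK type, with 1.11 times. Their log2 fold changes were -1.16 (edgeR adjusted p = 0.0824), -1.20 (adjusted p = 0.124) and -1.97 (adjusted p = 0.118). DESeq2, by which the list was chosen, called each of these 3 (adjusted p = 0.0289, 0.0168 and 0.0154 in the same order).

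**Figure D4:**
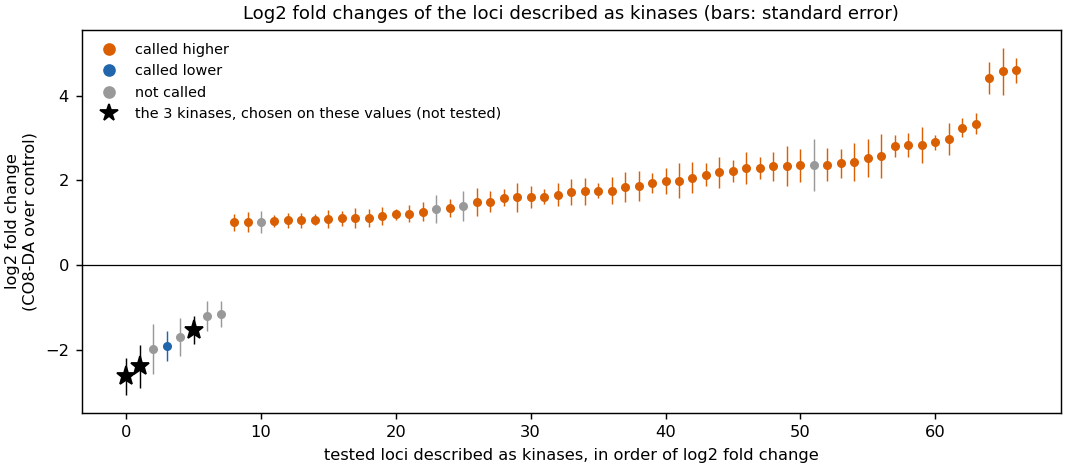
log2 fold change (CO8-DA over control, edgeR) of the 67 tested loci described as kinases, in order of size, with bars for the standard error. Stars mark Psat6g038840 (-2.63), Psat4g196680 (-2.39) and Psat5g033760 (-1.53), which were chosen for being lower and are not coloured by a call, while 55 of the other 64 loci were called higher.

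The family of Psat4g196680 held 11 other loci described as LRR receptor kinases, again from the study's changed genes. Of these, edgeR called 9 higher and 0 lower, with 0 lower at an unadjusted p under 0.05. Of all tested loci, edgeR called 2.63% higher. DESeq2, by which the list was chosen, called all 11 higher. Their median log2 fold change was 1.59. The 9 calls became 11 without control replicate 1 and 5 or 6 without any other single library. Psat4g196560, an LRR receptor-like kinase numbered between Psat4g196520 and Psat4g196600, had a log2 fold change of 1.00 (SE 0.48, edgeR adjusted p = 0.309).

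Around the cytokinin receptor locus, 5 other loci were described as cytokinin or two-component genes, of which 2 had counts enough to be tested. The edgeR fit called 0 of them, with 1 lower at an unadjusted p under 0.05. DESeq2, by which the study had listed that locus, called it. It is Psat2g153400, the other histidine kinase of this list, with a CPM of 26.5, 9.87 and 12.7 in controls and 8.74, 6.97 and 5.83 after CO8-DA. Psat1g140640, a cytokinin oxidase/dehydrogenase-like protein of the family that breaks cytokinin down, had a CPM of 1.22, 1.39 and 0.357 in controls and 1.72, 2.01 and 2.10 after CO8-DA. Its log2 fold change of 0.98 (SE 0.44) missed the call (edgeR adjusted p = 0.279, DESeq2 adjusted p = 0.391). Psat1g140640 entered the list from the part of the study's annotation cut to the highest fold changes, so its direction was set by that choice.

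The response regulators, which act downstream of cytokinin receptors, had too few counts to be tested. Psat4g007520, matched to ARR12 of Arabidopsis, had 0, 2 and 0 counts in controls and 4, 10 and 8 after CO8-DA, a depth-scaled ratio of 9.34 with an exact 95% counting interval of 2.30 to 82.0. Psat4g192080, ARR9-like, had 4, 0 and 2 counts against 6, 12 and 6 (ratio 3.40, interval 1.35 to 10.2). Psat5g068440, matched to ARR17, had 1, 1 and 1 counts against 2, 3 and 4 (ratio 2.55, interval 0.636 to 14.6). The 3 response regulators entered the list from the same cut annotation as Psat1g140640, so their direction too was set by that choice.

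Root hair or root development stood in the annotation of 25 loci besides Psat5g033760, again chosen on these samples. Of the 24 tested, edgeR called 12 higher, 5 lower and 7 neither, beside 2.63% and 0.493% of all tested loci, and their median log2 fold change was 1.32. The 17 calls became 10 or 11 without control replicate 3 or with a single CO8-DA library left out.

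The 10 loci on each side of the 3 kinases, in order of locus number, numbered 60, of which 36 were tested. The edgeR fit called 2 neighbours higher and 0 lower, with 1 lower locus at an unadjusted p under 0.05, and DESeq2 called 3 higher and 1 lower. Over all tested loci the edgeR shares were 2.63% and 0.493%, and 1885 of 21293 loci were lower at an unadjusted p under 0.05. DESeq2 gave a p-value at 45 of the 60 neighbours, and over all loci it tested its shares were 2.94% and 0.829%. With control replicate 3 or a single CO8-DA library left out, edgeR called 0 neighbours, with 5 to 7 at an unadjusted p under 0.05 in either direction. The share of all tested loci at that level was not counted for these fits. In the fit to all 6 libraries the median log2 fold change of the neighbours was -0.06, near that of all loci. Around Psat5g033760 no neighbour of 12 tested was called by edgeR or DESeq2. The next locus, Psat5g033800, had a log2 fold change of 0.41 (SE 0.31, edgeR adjusted p = 0.522), and the preceding one, the glutamate receptor 3.2 locus Psat5g033720, had 0 counts in every control and 1, 4 and 1 counts after CO8-DA.

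Beside Psat4g196680, Psat4g196720 had a log2 fold change of 0.27 (SE 0.53, edgeR adjusted p = 0.831) and Psat4g196640 had no count. Among its neighbours Psat4g197080, a hypothetical protein, rose from a CPM of 2.98, 1.39 and 2.64 to 8.90, 6.85 and 7.62, a log2 fold change of 1.72 (SE 0.29, edgeR adjusted p = 0.0155). Reads of Psat4g197080 were also divided with other loci, and its call was lost without control replicate 3 or any CO8-DA library (adjusted p up to 0.0717).

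Psat6g038840 lay between Psat6g038800 and Psat6g038880, a probable protein phosphatase 2C, an enzyme class that removes phosphate from proteins. The CPM of Psat6g038880 was 3.73, 1.31 and 2.14 in controls and 4.29, 6.35 and 5.99 after CO8-DA, higher in every treated library. Its log2 fold change of 1.20 (SE 0.36) missed the edgeR call (adjusted p = 0.124) and passed that of DESeq2 (adjusted p = 0.0443).

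Across the 6 libraries, the log2 CPM of Psat4g196680 and Psat6g038840 had a Pearson r of 0.95, that of Psat5g033760 and Psat6g038840 an r of 0.88, and that of Psat5g033760 and Psat4g196680 an r of 0.79. These values contain the group difference that chose the loci and are a description. Psat4g196680 and Psat6g038840 shared a low control replicate 2, whereas at Psat5g033760 that library was close to the other controls.

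The loci most like each kinase over the 6 libraries reached an r of 0.99 or more, but 110 to 170 loci exceeded 0.95, so this likeness is shared by many. For Psat5g033760 they were Psat4g228960, Psat1g052480 and Psat3g042560. Of these Psat3g042560, a heavy metal-associated domain protein, had a CPM of 32.6, 32.8 and 31.0 in controls and 16.6, 17.3 and 12.3 after CO8-DA. Its log2 fold change of -1.06 (SE 0.14) is a description because the likeness contains the same contrast. For Psat4g196680 they were Psat3g093440, Psat0s2295g0040 and Psat6g177480, and for Psat6g038840 they were Psat7g087440, Psat1g087280 and Psat4g079280, with log2 fold changes of -0.97 to -0.11.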

How the data were processed

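RNA from 6 pea root libraries was sequenced. The deposited table holds an estimated count per locus and library, which the authors made by aligning trimmed reads to the pea v1a reference and running RSEM 1.3.1, with Trimmomatic 0.39 and Bowtie2 2.4.4 also named in the submitters' processing notes. RSEM divides reads that match several loci, and 29.1% of tested loci had such non-whole values (tolerance 0.005). The counts were rounded, filtered with filterByExpr, scaled by TMM and tested with edgeR 4.0.16 (R 4.3.3) over all tested loci, without a block. Totals were 12315774 to 19534336. DESeq2 1.42.0, limma-voom (limma 3.58.1), other scalings, filters, unrounded counts, replicate blocks and leaving out each library were alternatives. The fits were tested on simulated data. For correlations, CPM were put on a log2 scale after adding a prior count of 2.

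The 3 kinases and all lists were chosen with earlier results of these data known. Named were the 3 kinases, kinases called lower by edgeR or DESeq2, the galacturonan-binding and cytokinin lists, called and nearest neighbours (10 on each side), and the 3 most similar loci per kinase. Psat4g196560 was named after its values were seen. Descriptions came from annotation published with the study, of which 1 table was used only in a cut form that leans to higher loci. Its fold changes and p-values were not read here, but they had decided which loci the study listed. Genome coordinates and sequences were not used here, since no locus matched the available RefSeq table. The smallest two-sided p of an exact permutation test of 3 against 3 libraries is 0.1, so none was run.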

Additional observations from a re-analysis of the deposited data

How the results depend on the processing

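The sign of the log2 fold changes of the 3 kinases was set by the way they were chosen and says nothing of their stability. Leaving out 1 library at a time gave -1.73 to -1.27 for Psat5g033760, -2.80 to -1.74 for Psat4g196680 and -2.97 to -2.41 for Psat6g038840. Summing Psat4g196680 with Psat4g196520 gave -1.05 and with Psat4g196600 added -1.01, alternatives chosen after seeing the data. The counts of calls in this section include the 3 kinases. DESeq2 called 196 loci lower, 8 kinases lower, 2 cytokinin or two-component loci and 4 neighbours, against 105, 4, 1 and 2 by edgeR. With limma-voom 2 kinases were called lower. The leave-one-out counts were 33 to 165 loci lower and 338 to 778 higher, 0 to 3 kinases lower and 25 to 55 higher, 5 to 12 LRR kinases, 1 to 7 galacturonan-binding loci, 0 cytokinin or two-component loci in every fit (with 2 to 3 at an unadjusted p under 0.05), 10 to 19 root loci and 0 to 3 neighbours. These fits have fewer samples.

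A replicate block by title number gave -1.54, -2.16 and -2.53 for Psat5g033760, Psat4g196680 and Psat6g038840, 118 loci lower, 588 higher and 5 kinases lower. Same-numbered libraries correlated by 0.226, 0.0449 and 0.151 in their deviations from the group means, so the number was not treated as a pairing. A block by library number gave -1.27, -2.12 and -2.26 for Psat5g033760, Psat4g196680 and Psat6g038840. It called 206 loci lower, 888 higher, 2 kinases lower and 0 cytokinin or two-component loci. Its same-numbered libraries correlated by -0.119 and 0.0449. Only library numbers 3 and 4 occur in both groups, so control replicate 1 and CO8-DA replicate 3 do not enter the contrast of this fit. It thus rests on fewer libraries than the block by title number. Beyond this difference in libraries, the cause of the changes in these counts was not tested. At 9 to 30 counts per library, Psat5g033760 is limited by depth.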
